A study of Mus musculus with 29 samples.

Results

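Levels of 10 blood vessel genes were followed in mouse ovaries at 4 ages and in 2 genotypes. The genes were taken by symbol from a given list, Pecam1, Cdh5, Emcn, Kdr, Flt1, Tie1, Tek, Vegfa, Angpt1 and Angpt2, and all 10 were found among the 51912 gene IDs of the deposited count table. Of these, 7 are genes of endothelial cells and 3 encode ligands. The series holds 29 bulk RNA-seq libraries from dissociated ovaries and asked what cell cycle control does in the developing ovary. Wild-type mice (WT, Cdkn1b +/+) and homozygous nulls (Cdkn1b -/-) were sampled before birth, on days 13.5 and 18.5 of gestation (E13.5 and E18.5), and after it, on day 8 (PND8) and at 12 weeks of age (12wk). WT has 4 libraries per age. The null has 4 at E18.5 and 3 at each of the other ages. Cdkn1b encodes p27Kip1, an inhibitor of cyclin-dependent kinases. The null is a whole-body genotype as labelled, and the labels do not give the strain, the allele's design or the litters. Since nothing says that replicates came from separate animals, p-values measure the spread between these libraries only.

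Endothelial cells line blood vessels and carry receptor tyrosine kinases for vascular endothelial growth factors (VEGFs) and for angiopoietins. VEGF-A signals mainly through VEGFR2, while VEGFR1 binds the same ligand tightly and signals weakly. Angiopoietin-1 activates the receptor TIE2 and steadies vessels, and angiopoietin-2 often opposes it where vessels are remodelled. In the adult ovary vessels grow and regress with each round of follicles and corpora lutea.

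Library totals ran from 14.1 to 48.2 M counts (M, mega), with 14.1 to 24.86 M counts in the fetal libraries and 24.07 to 48.21 M counts in the postnatal ones. Levels are CPM, counts for each 1 M counts of the library, on library sizes scaled by the trimmed mean of M-values (TMM), and differences are log2 fold changes. A count of 3, taken as the floor, lay between 0.0622 and 0.213 CPM for counting error only, and every member had at least 15 counts in every library. Cdkn1b was lower in each null library than in every WT library of its age, with log2 fold changes of -2.38, -3.06, -1.06 and -1.85 from E13.5 to 12wk (edgeR quasi-likelihood test, adjusted p 0.0114, 1.12e-05, 0.0216 and 0.211). Granulosa lineage markers, which mark the supporting cells of the ovary, summed to between 508 and 5900 CPM per library. One library stood apart: erythroid markers summed to 206000 CPM in WT E13.5 replicate 3, against 6410 to 10100 CPM in the other 6 libraries of that age. The fetal and postnatal libraries also differed over most genes. The median absolute log2 difference over all genes was 1.06 between E18.5 and PND8 in WT, against 0.47 for the step before and 0.30 for the step after. The file header names a folder of 2 combined projects without saying which libraries came from which, so age and a difference in library preparation cannot be told apart. In bulk RNA, fewer cells of a type and less RNA per cell cannot be told apart either.

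The gene models are those of GENCODE M21 on GRCm38. Pecam1 (ENSMUSG00000020717, chromosome 11, 106654217 to 106750628, minus strand) encodes PECAM-1, an adhesion molecule of endothelial cells, platelets and some other cells. Cdh5 (ENSMUSG00000031871, chromosome 8, 104101625 to 104144511, plus strand) encodes VE-cadherin, the junction protein of endothelium. Emcn (ENSMUSG00000054690, chromosome 3, 137341067 to 137432185, plus strand) encodes endomucin, a sialomucin of veins and capillaries. Kdr (ENSMUSG00000062960, chromosome 5, 75932827 to 75978458, minus strand) encodes VEGFR2, and Flt1 (ENSMUSG00000029648, chromosome 5, 147561604 to 147726011, minus strand) encodes VEGFR1. Tie1 (ENSMUSG00000033191, chromosome 4, 118471191 to 118490061, minus strand) encodes TIE1, which pairs with TIE2, and Tek (ENSMUSG00000006386, chromosome 4, 94739289 to 94874976, plus strand) encodes TIE2. The ligand genes are Vegfa (ENSMUSG00000023951, chromosome 17, 46016993 to 46032369, minus strand), Angpt1 (ENSMUSG00000022309, chromosome 15, 42424723 to 42676977, minus strand) and Angpt2 (ENSMUSG00000031465, chromosome 8, 18690263 to 18741562, minus strand).

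Within a group, the 7 endothelial genes were high or low in the same libraries. After the group mean was taken off each log2 CPM value, the 21 pairs of these genes had a median Pearson correlation of 0.84 over the 29 libraries, from 0.55 for Cdh5 with Kdr to 0.98 for Pecam1 with Flt1. The correlations are descriptions, since the genes of a library share its RNA and depth. Kdr was the loosest of the 7, at 0.55 to 0.77 with the other genes. The ligand genes followed them less closely: the median correlation with the 7 was -0.29 for Vegfa, 0.10 for Angpt1 and 0.34 for Angpt2.

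The WT libraries of E18.5 show the pattern. Flt1 measured 18.4, 32.7, 4.82 and 7.27 CPM in replicates 1 to 4, and Tie1 measured 31.8, 22.2, 7.09 and 6.94 CPM. Replicates 3 and 4 were the lowest for all of the endothelial genes but Kdr, which measured 71.5, 81.4, 60.0 and 80.5 CPM. Erythroid markers summed to 24800, 6840, 33300 and 1580 CPM in the same 4 libraries and germ cell markers to 471, 1130, 405 and 804 CPM, with no common direction in replicates 3 and 4. Other sums were higher in replicates 3 and 4 than in both of the others: surface epithelium markers at 337, 826, 1170 and 1270 CPM, stromal markers at 4710, 3360, 5030 and 5850 CPM, and mural cell genes at 448, 476, 548 and 623 CPM. Mesonephros markers, lymphatic genes and secreted inhibitors of vessel growth were higher there too, and the part of these cells in the low endothelial values was not tested. At 12wk, null replicate 4 was the highest library for all 7 genes. Its mean log2 CPM over them was 7.46, against 6.14 and 5.84 in null replicates 1 and 3. Granulosa lineage markers summed to 2460 CPM in that library against 5000 and 5880 CPM in the other null libraries, erythroid markers to 812 against 233 and 221 CPM, leukocyte markers to 491 against 262 and 317 CPM, and mural cell genes to 2660 against 1670 and 1180 CPM. Their part in its endothelial values was not tested.

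**Figure D1:**
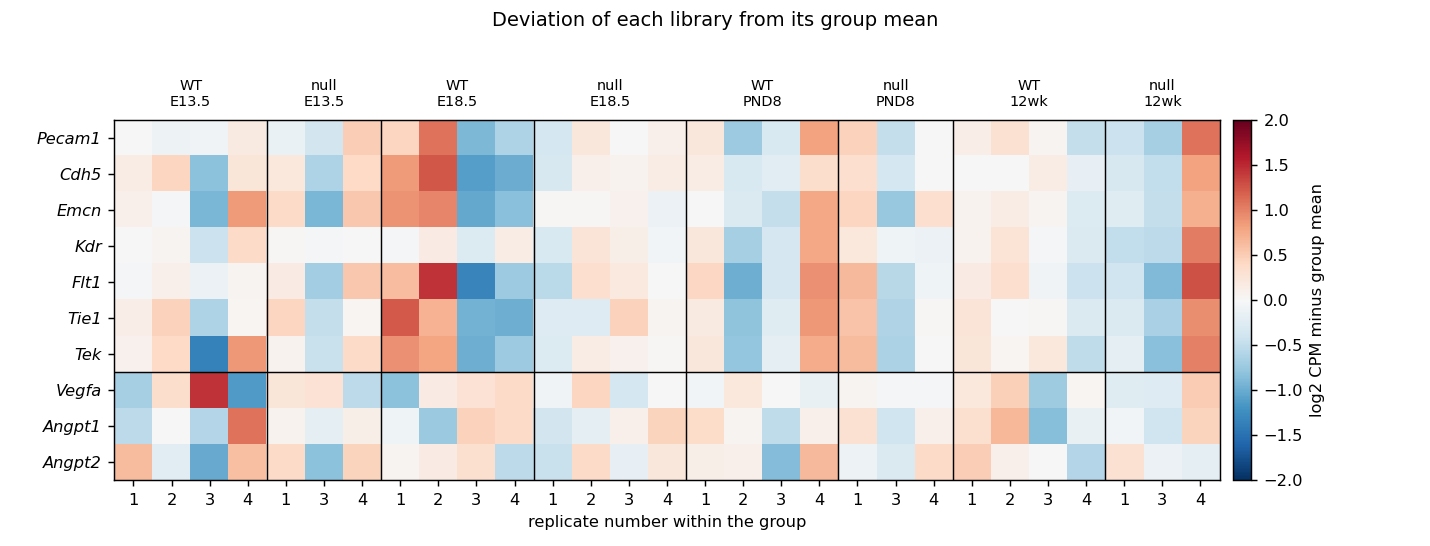
Each cell is 1 gene (row) in 1 library (column), coloured by its log2 CPM minus the mean of that gene in its group. Endothelial rows tend to share colour within a column: all but Kdr are low in WT E18.5 replicates 3 and 4, and all 7 are high in null 12wk replicate 4.

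Over all 29 libraries and the 12944 genes with a mean of at least 2 CPM, the 10 genes most like the mean of the 7 were Cd93, Mmrn2, Dll4, Nos3, Cldn5, Rasgrp3, Robo4, Pcdh12, Flt4 and Lyn, with Pearson r from 0.968 down to 0.933. Of these, 5 stand on the list of other endothelial genes used here (Cd93, Mmrn2, Nos3, Cldn5 and Robo4). Dll4 stands on the list of arterial, venous and tip cell genes, and Flt4 encodes VEGFR3.

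Promoter sequence is shown for 4 of these co-varying genes. RefSeq promoters (GRCm38.p6) were matched for 6 of the 10 members, with 7 entries. The 250 bases before the start are printed 5′ to 3′ on the gene's strand for Flt1 (chr5:147726012-147726261, minus), Emcn (chr3:137340828-137341077, plus), Kdr (chr5:75978456-75978705, minus) and Tek (chr4:94739039-94739288, plus). Capitals mark AGGAAG or CGGAAG on either strand, forms of the site of ETS factors, a family known for its part in endothelial genes. Shorter and other forms of the site were not searched.
Flt1: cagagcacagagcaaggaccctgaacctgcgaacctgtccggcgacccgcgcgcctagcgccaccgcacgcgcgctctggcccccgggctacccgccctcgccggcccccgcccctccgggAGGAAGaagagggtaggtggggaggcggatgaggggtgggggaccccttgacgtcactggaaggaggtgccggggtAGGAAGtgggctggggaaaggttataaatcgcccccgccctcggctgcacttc
Emcn: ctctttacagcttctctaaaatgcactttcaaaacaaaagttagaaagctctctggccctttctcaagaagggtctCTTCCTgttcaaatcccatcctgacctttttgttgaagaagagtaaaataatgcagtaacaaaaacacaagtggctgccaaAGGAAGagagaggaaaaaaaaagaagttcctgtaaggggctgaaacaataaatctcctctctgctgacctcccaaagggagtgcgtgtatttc
Kdr: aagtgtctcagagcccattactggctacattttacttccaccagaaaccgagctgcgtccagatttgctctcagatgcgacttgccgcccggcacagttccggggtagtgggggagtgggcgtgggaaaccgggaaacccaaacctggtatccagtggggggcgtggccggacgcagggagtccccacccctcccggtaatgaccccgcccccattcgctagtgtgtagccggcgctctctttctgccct
Tek: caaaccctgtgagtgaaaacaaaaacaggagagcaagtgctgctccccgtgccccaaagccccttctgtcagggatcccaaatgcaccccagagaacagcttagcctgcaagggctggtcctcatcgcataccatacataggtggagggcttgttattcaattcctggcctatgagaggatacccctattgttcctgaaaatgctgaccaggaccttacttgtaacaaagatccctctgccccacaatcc
Flt1 and Emcn each hold 2 matches to these forms in this window, as does Tie1, while Kdr and Tek hold 0. Among all 32851 promoters of the table, 39.2% hold at least 1 such match in the same window. GC content was 70.4% for Flt1, 61.6% for Kdr, 51.2% for Tek and 40.8% for Emcn, around a median of 52.4% over the table. A match of letters is a description and shows no binding.

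In WT ovaries all 7 endothelial genes had their highest mean level at 12 weeks, and Cdh5 and Flt1 stood furthest above their fetal levels. Cdh5 measured 32.7, 39.8, 16.8 and 34.8 CPM at E13.5, 47.0, 61.0, 12.1 and 13.0 at E18.5, 164, 120, 128 and 188 at PND8, and 206, 207, 229 and 183 at 12wk. Its lowest postnatal library was above its highest fetal one. Flt1 measured 13.6, 15.1, 12.9 and 14.6 CPM at E13.5, 24.3, 9.28, 14.4 and 34.3 at PND8, and 69.2, 77.5, 58.5 and 46.0 at 12wk. Every adult Flt1 value was above every WT value at an earlier age. Pecam1 measured 86.8, 81.2, 82.5 and 98.1 CPM at E13.5, 40.0, 62.8, 16.0 and 19.4 at E18.5, 41.9, 21.6, 28.9 and 62.6 at PND8, and 98.2, 110, 92.8 and 64.1 at 12wk. Its E13.5 and adult ranges overlapped, and both lay above the whole E18.5 and PND8 ranges. Kdr measured 89.6, 94.1, 67.0 and 118 CPM at E13.5, 61.1, 33.2, 41.5 and 89.4 at PND8, and 112, 129, 104 and 87.5 at 12wk, and its E13.5 and adult ranges overlapped.

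Emcn, Tie1 and Tek were also highest on average at 12wk, with overlap. In WT, Emcn ran from 13.9 to 47.3 CPM at E13.5, 7.52 to 30.1 at E18.5, 11.2 to 26.7 at PND8 and 25.5 to 34.4 at 12wk, and its E13.5 range enclosed the adult one. Tie1 ran from 16.5 to 34.9, 6.94 to 31.8, 15.2 to 48.2 and 46.0 to 67.2 CPM at the same ages, and its adult libraries lay above every fetal one. Tek ran from 7.47 to 34.6, 11.1 to 41.1, 10.1 to 28.8 and 24.2 to 40.7 CPM, and all 4 ages overlapped. In the null at 12wk, replicates 1, 3 and 4 measured 36.6, 31.4 and 71.5 CPM for Emcn, 58.8, 46.1 and 137 CPM for Tie1, and 39.2, 24.9 and 88.8 CPM for Tek. Replicates 1 and 3 lay in or near the WT range and replicate 4 above it for each of these genes. The same held for Kdr, at 111, 109 and 319 CPM, and Pecam1, at 81.3, 69.2 and 233 CPM.

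**Figure D2:**
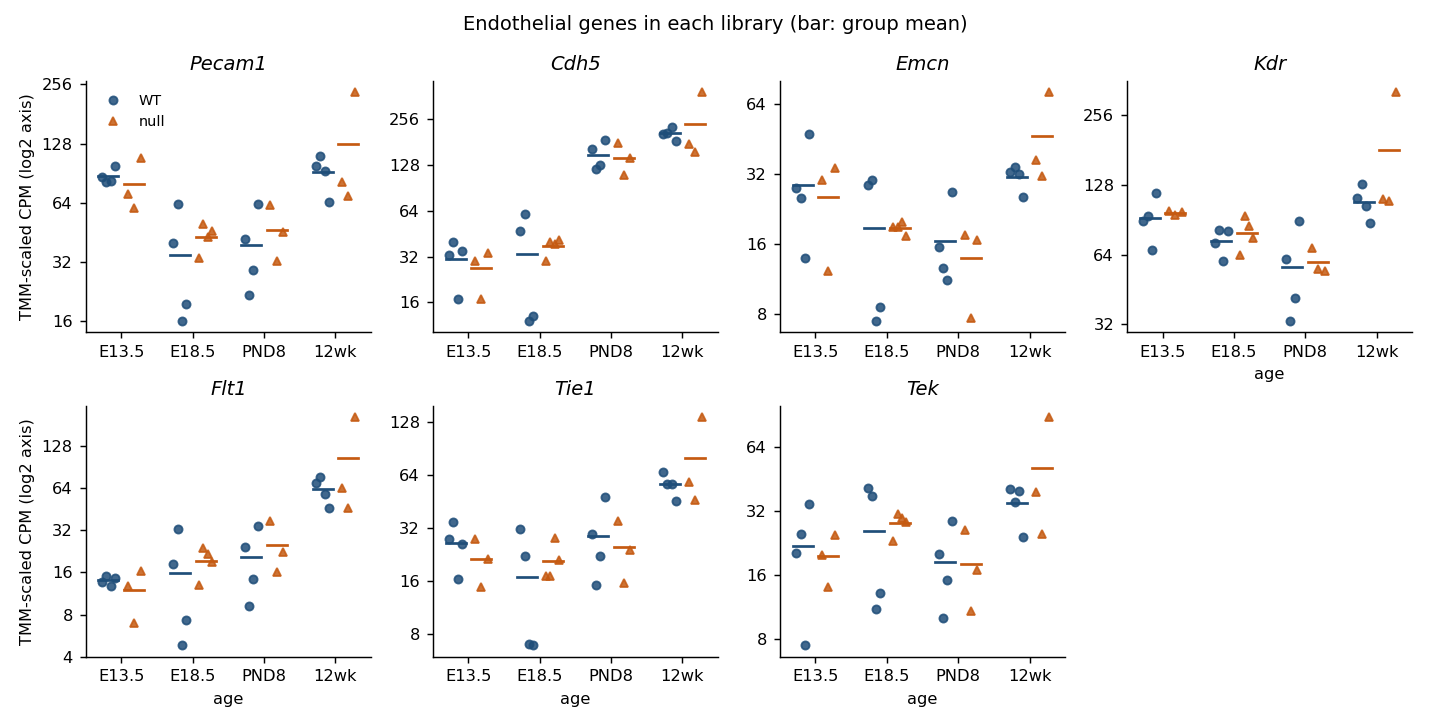
CPM of the 7 endothelial genes in each library by age, on a log axis, for WT and null, with group means. Cdh5 steps up between E18.5 and PND8, from a highest fetal value of 61.0 CPM to a lowest postnatal value of 110 CPM, while the other 6 overlap between those ages. Null 12wk replicate 4 is the highest point for all 7.

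Levels of different genes can be set side by side only per length. In CPM per kilobase of exon, Pecam1 led in WT at E13.5 with 14.0 ± 1.24 (SD, n = 4) and Kdr followed with 10.2 ± 2.32. From PND8 Cdh5 led, with 35.7 ± 7.54 at PND8 and 49.1 ± 4.49 at 12wk (SD, n = 4). At 12wk Pecam1 (14.7 ± 3.15), Vegfa (14.6 ± 4.58), Kdr (12.0 ± 1.92) and Tie1 (11.6 ± 1.76) came next, in that order. Angpt2 (8.47 ± 2.5), Tek (7.44 ± 1.61), Emcn (5.76 ± 0.722), Flt1 (4.65 ± 1.01) and Angpt1 (1.95 ± 0.811) followed. Neighbours in this order did not differ beyond their spread (mean ± SD), except Cdh5 against Pecam1 and Flt1 against Angpt1. Part of this order depends on the gene model. On the longest transcript, WT at 12wk had 26.6 CPM per kilobase for Pecam1, 18.3 for Kdr, 9.11 for Flt1 and 8.85 for Emcn. Flt1 then moved from place 9 to 6, Angpt2 from 6 to 8 and Tek from 7 to 9, while Cdh5 still led.

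From PND8 to 12wk in WT, 9 of the 10 members passed the test, 8 higher and 1 lower (edgeR quasi-likelihood test, Benjamini-Hochberg adjusted over all genes, threshold 0.05). Over all 17293 genes tested, 16.1% were called higher and 14.3% lower. All 7 endothelial genes rose. Flt1 rose by 1.68 on the log2 scale (SE 0.376, adjusted p 0.0103), which is 3.20-fold, and Pecam1 by 1.3 (SE 0.319, adjusted p 0.0150). Tie1, Kdr, Tek and Emcn rose by 1.04, 1.01, 0.99 and 0.98 (adjusted p 0.0362, 0.0292, 0.0394 and 0.0222). Cdh5 rose by 0.53 (SE 0.151, adjusted p 0.0275), the smallest of the 7. The highest PND8 library, replicate 4, lay just above the lowest 12wk library, also numbered 4, for Cdh5, Kdr, Tek, Tie1 and Emcn. Flt1 and Pecam1 did not overlap. The share of all genes without overlap was not counted, so this is a description of single genes. The median log2 difference was 1.00 over the members and -0.01 over all genes tested. Leaving out 1 library gave 3 to 8 called members: 4, 3 and 5 without WT PND8 replicates 1, 2 and 3, and 3 without WT 12wk replicate 1. Flt1, Pecam1 and Angpt2 passed in all 8 of these fits. In the same step all 9 leukocyte markers rose, from a sum of 38.0 to 59.7 CPM per library to 323 to 395 CPM, and 5 of 6 germ cell markers fell, and their part in the members' rise was not tested.

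In the null, Emcn, Tie1, Kdr and Angpt2 rose in the same step. There 4 of 10 members were called, 4 higher and 0 lower, where 14.8% of 17437 genes were called higher and 14.3% lower. By edgeR 8 members had an unadjusted p under 0.05, as did 7206 of all genes tested. Among the endothelial genes, Emcn rose by 1.84 (SE 0.451, adjusted p 0.0266 by edgeR), Tie1 by 1.80 (SE 0.511, adjusted p 0.0425) and Kdr by 1.71 (SE 0.473, adjusted p 0.0390). Flt1 (2.18, adjusted p 0.0519), Pecam1 (1.57, adjusted p 0.0754), Tek (1.61, adjusted p 0.0761) and Cdh5 (0.85, adjusted p 0.164) did not pass. The size rests partly on null 12wk replicate 4, and without it the log2 differences were 0.96 for Kdr, 1.14 for Tie1 and 1.35 for Emcn. The count fell to 1, Angpt2, without any of null PND8 replicates 1, 3 and 4, and was 7 without null 12wk replicate 3. Leukocyte markers again rose, 9 of 9, to 262 to 491 CPM, and germ cell markers fell, 6 of 6.

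Between E18.5 and PND8, Cdh5, the VE-cadherin gene, was the one of the 7 endothelial genes that rose. In WT 3 of 10 members were called, 2 higher and 1 lower, where 37.6% of 17421 genes were called higher and 36.9% lower. Cdh5 rose by 2.10 on the log2 scale (SE 0.508, adjusted p 0.00403 by edgeR), or 4.28-fold, and 11.9% of all genes tested rose at least as much. At E18.5 Cdh5 measured 47.0 and 61.0 CPM in WT replicates 1 and 2. In replicates 3 and 4, low in most endothelial genes, it measured 12.1 and 13.0 CPM, so the size of the rise rests partly on them. The other 6 endothelial genes had log2 differences from -0.55 (Tek) to 0.70 (Tie1) and none passed. In the null 5 of 10 members were called, 2 higher and 3 lower, where 38.9% of 17245 genes were called higher and 38.5% lower. Cdh5 rose by 1.87 on the log2 scale (SE 0.169, adjusted p 5.93e-06), or 3.66-fold, with PND8 values of 178, 110 and 142 CPM against 29.7, 39.8, 38.8 and 40.8 CPM at E18.5. Kdr fell by 0.49 (SE 0.137, adjusted p 0.00864) and Tek fell by 0.70 (SE 0.256, adjusted p 0.0316). The Tek call held in 2 of the 7 fits lacking 1 library, without null E18.5 replicate 1 or null PND8 replicate 1. Without null E18.5 replicates 2, 3 or 4 or null PND8 replicates 3 or 4 its log2 difference was -0.66, -0.69, -0.70, -0.43 and -0.66, with adjusted p from 0.0595 to 0.0937.

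GC content moved with this step over all genes. In WT the median log2 difference went from -0.85 in the tenth of genes with the lowest GC content (median 39.2%) to 0.60 in the highest (59.6%), and Cdh5 has 52.2%. With an offset for GC content and length, Cdh5 rose by 1.51 in WT (adjusted p 0.0369 by edgeR) and by 1.35 in the null (adjusted p 8.11e-05). Under that offset most genes were called, 12393 of 17377 in WT and 12822 of 17198 in the null. Of the 10 members 5 were called in WT and 8 in the null, among them Kdr, which fell by 1.43 in WT and by 1.51 in the null. In the null Flt1 went from 0.31 to -0.95 (adjusted p 0.0143) and Tie1 from 0.19 to -0.80 (adjusted p 0.0229), so both changed sign and were called lower. Angpt1 was called higher, at 0.75 in WT and 0.93 in the null. The directions of Flt1 and Tie1 in this step therefore depend on the offset, and with the replicate block added their adjusted p was 0.0725 and 0.0730. On plain library totals the median gene lay at -0.207 in WT and -0.218 in the null, and the uncalled values of Pecam1 in both genotypes, of Angpt1 in WT and of Tie1 in the null changed sign.

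Between E13.5 and E18.5 Pecam1 was the only endothelial member called, and it fell in both genotypes. The others ran from -0.64 (Tie1) to 0.23 (Tek) in WT and from -0.41 (Emcn) to 0.71 (Flt1) in the null, and none passed. In WT 2 of 10 members were called, 1 higher and 1 lower, where 16.6% of 16603 genes were called higher and 17.5% lower. Pecam1 fell by 1.34 on the log2 scale (SE 0.380, adjusted p 0.0217 by edgeR), with no overlap between ages. The share of all genes without overlap was not counted. At E18.5 Pecam1 measured 40.0 and 62.8 CPM in WT replicates 1 and 2. In replicates 3 and 4, low in most endothelial genes, it measured 16.0 and 19.4 CPM, so the size of the fall rests partly on them. Without WT E13.5 replicate 4 its adjusted p was 0.0521, and without WT E13.5 replicate 3, the erythroid-rich library, 4 members were called. On plain library totals the median gene lay at 0.135 and 3307 genes were called higher and 2104 lower, against 2748 and 2902 on the TMM scale. In the null 3 of 10 members were called, 2 higher and 1 lower, where 15.8% of 16598 genes were called higher and 14.5% lower. Pecam1 fell by 0.86 (SE 0.211, adjusted p 0.0157), from 70.5, 59.8 and 108 CPM to 33.3, 49.8, 42.8 and 45.7 CPM. Markers of platelets, which also carry PECAM-1, summed to 8.21 to 67.2 CPM at E13.5 and 7.89 to 23.6 CPM at E18.5, and their part in the fall was not tested. Germ cell markers changed in this step too. Of 6 tested, 2 were called higher and 2 lower in WT, and 0 higher and 3 lower in the null. Pou5f1 changed by -6.34 in WT and -7.11 in the null, and Sycp3 by 4.96 in WT. The part of germ cells in the fall of Pecam1 was not tested either.

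Of the ligand genes, Vegfa was near the bottom of the scale in every fetal library and high in every postnatal one. In WT it measured 0.91, 1.85, 3.93 and 0.661 CPM at E13.5, 1.65, 3.27, 3.57 and 3.80 at E18.5, 72.8, 88.3, 75.1 and 68.7 at PND8, and 69.3, 83.4, 36.6 and 61.5 at 12wk. In the null it measured 1.35, 1.40 and 0.797 CPM at E13.5, 1.96, 2.77, 1.61 and 2.07 at E18.5, 65.5, 62.4 and 62.0 at PND8, and 53.1, 52.2 and 88.6 at 12wk. The fetal and postnatal ranges were far apart, with 3.93 CPM the highest fetal value, in the erythroid-rich library, and 36.6 CPM the lowest postnatal one. From E18.5 to PND8 Vegfa rose by 4.54 on the log2 scale in WT (SE 0.230, adjusted p 1.35e-07 by edgeR), or 23.2-fold, and by 4.85 in the null (SE 0.154, adjusted p 6.10e-09), or 28.8-fold. Of all genes tested, 2.40% in WT and 2.34% in the null rose at least as much. The step from E13.5 to E18.5 (0.75 in WT, adjusted p 0.323, and 0.85 in the null, adjusted p 0.107) and the step from PND8 to 12wk (-0.21, adjusted p 0.515, and 0.13, adjusted p 0.722) did not pass.

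The 3 genes most like Vegfa over the 29 libraries were Fxr2 (Pearson r 0.991), an RNA-binding protein of the fragile X family, Ube2m (0.991), a NEDD8-conjugating enzyme, and Ube2z (0.990), a ubiquitin-conjugating enzyme. From E18.5 to PND8 these genes differed by 2.48, 2.44 and 1.98 on the log2 scale in WT and by 2.99, 2.69 and 2.19 in the null, a step that their choice by likeness to Vegfa fixed and that was smaller than that of Vegfa. Over all genes, 23.7% in WT and 25.5% in the null changed by more than 2 on the log2 scale in that step. With the offset for GC content and length, Vegfa rose by 4.28 in WT and by 4.60 in the null. The part of library preparation in this rise was not tested, since it cannot be told apart from age.

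Angpt2 alternated between ages. In WT it measured 6.24, 3.42, 2.00 and 6.08 CPM at E13.5, 24.8, 26.7, 29.8 and 16.7 at E18.5, 7.30, 7.22, 3.69 and 10.6 at PND8, and 42.4, 32.4, 30.1 and 20.0 at 12wk. In the null it measured 3.74, 1.63 and 3.93 CPM at E13.5, 20.0, 35.5, 24.4 and 31.7 at E18.5, 3.86, 3.40 and 5.43 at PND8, and 96.2, 72.5 and 68.6 at 12wk. No E13.5 or PND8 library reached the range of E18.5 or 12wk in either genotype. In WT Angpt2 rose by 2.44 on the log2 scale to E18.5 (SE 0.347, adjusted p 0.000536), fell by 1.84 to PND8 (SE 0.299, adjusted p 0.000240) and rose by 2.19 to 12wk (SE 0.332, adjusted p 0.00185, edgeR). In the null it rose by 3.21 (SE 0.351, adjusted p 0.000477), fell by 2.79 (SE 0.254, adjusted p 4.83e-06) and rose by 4.31 (SE 0.226, adjusted p 0.000546), the last a 19.9-fold difference. All 6 of these calls held in every alternative run. Genes most like Angpt2 were Tmem86a, Pcp4l1 and Nfkbia, with Pearson r of 0.891, 0.882 and 0.880.

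Angpt1 moved less. In WT it measured 7.46, 10.8, 7.16 and 22.7 CPM at E13.5, 18.4, 11.7, 26.9 and 25.6 at E18.5, 28.6, 22.9, 15.5 and 23.7 at PND8, and 11.8, 15.0, 5.22 and 8.53 at 12wk. The PND8 and 12wk ranges did not overlap, while the fetal ranges did. From PND8 to 12wk in WT Angpt1 fell by 1.09 on the log2 scale (SE 0.317, adjusted p 0.0304 by edgeR), and 3 of the 8 fits lacking 1 library called it. In the null the same difference was -0.68 (SE 0.276, adjusted p 0.111). The null rose by 0.98 from E13.5 to E18.5 (SE 0.218, adjusted p 0.00944), and the WT difference was 0.77 (SE 0.391, adjusted p 0.156). The 3 genes most like Angpt1 were Arsi, Arsj and Lox, with Pearson r of 0.745, 0.740 and 0.736.

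**Figure D3:**
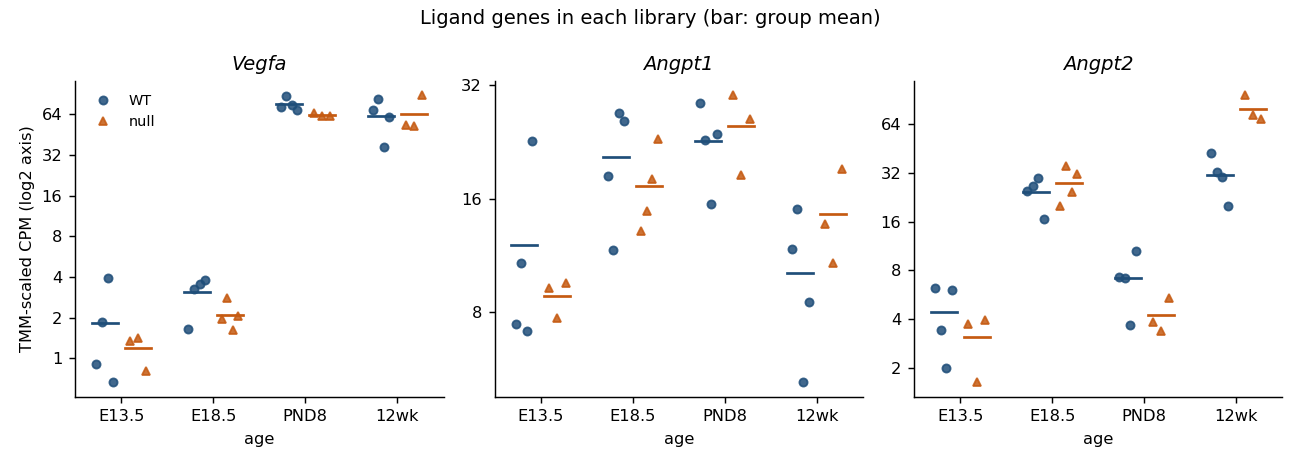
CPM of Vegfa, Angpt1 and Angpt2 in each library by age, on a log axis, for WT and null, with group means. Vegfa is at most 3.93 CPM before birth and at least 36.6 CPM after it. Angpt2 is high at E18.5 and 12wk, and the 3 null libraries at 12wk lie at 68.6 to 96.2 CPM, above the 4 WT libraries at 20.0 to 42.4 CPM.

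The balance of the angiopoietin genes varied with age. Per kilobase of exon, the ratio of Angpt2 to Angpt1 in WT was 1.18, 0.448, 0.394 and 0.378 at E13.5, 1.90, 3.23, 1.56 and 0.920 at E18.5, 0.360, 0.445, 0.336 and 0.627 at PND8, and 5.08, 3.04, 8.14 and 3.30 at 12wk. The null had 9.94, 9.47 and 5.04 at 12wk, which overlapped WT, and 0.181, 0.260 and 0.294 at PND8, all below the lowest WT value of 0.336. For the VEGF receptors, the mean ratio of Flt1 to Kdr per kilobase was 0.105, 0.139, 0.235 and 0.385 in WT from E13.5 to 12wk and 0.0831, 0.162, 0.279 and 0.368 in the null. In WT E18.5 this ratio was 0.172, 0.269, 0.0538 and 0.0604 in replicates 1 to 4. Flt1 is its numerator, so the low ratios of replicates 3 and 4 restate the low Flt1 of those libraries. The ratios are descriptions with no test.

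**Figure D4:**
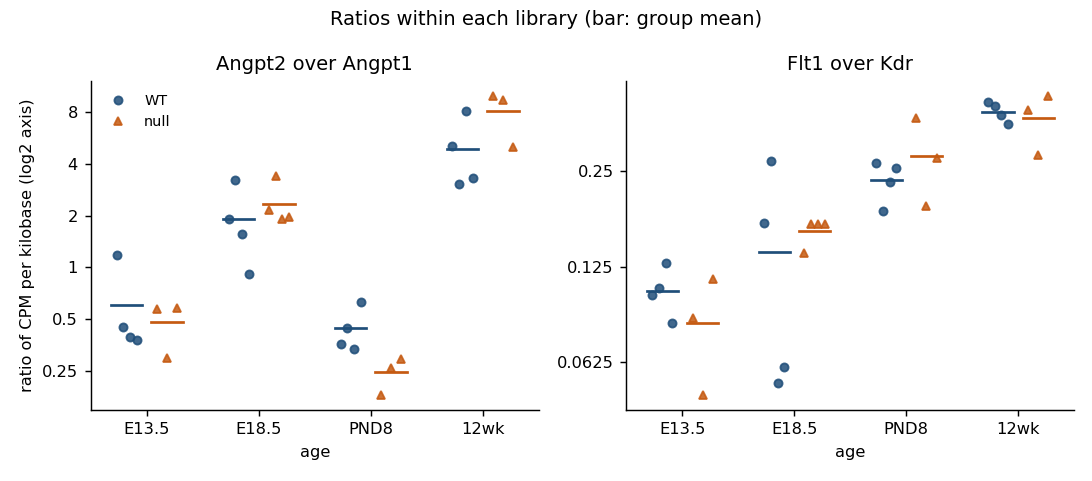
Ratio of Angpt2 to Angpt1 and of Flt1 to Kdr, each in CPM per kilobase of exon, in each library by age, on a log axis. The angiopoietin ratio is above 3 in all 7 libraries at 12wk and below 1.2 in every library at E13.5 and PND8. On the length of the longest transcript it was 2.58 and 2.8 in WT 12wk replicates 2 and 4.

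Between genotypes, none of the 10 genes passed the threshold at any age. By edgeR 0 of 10 were called at each of the 4 ages, and from the youngest to the oldest 0, 0, 2 and 1 had an unadjusted p under 0.05. Over all genes this held for 576 of 16508, 3615 of 16322, 2662 of 17785 and 1675 of 17396. Over all genes tested, in either direction, 0.00606%, 4.99%, 0.349% and 0.0115% were called at these ages, so few genes of any kind passed outside E18.5. Even Cdkn1b did not pass at 12wk (-1.85, adjusted p 0.211 by edgeR), where each null library lay below every WT library. A count of 0 there does not show that the members were unchanged. DESeq2 called 0 members at the first 3 ages and 1 at 12wk, Angpt2. The median log2 difference of the members was -0.24, 0.14, -0.07 and 0.54, against -0.01, -0.04, 0 and 0 over all genes.

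Angpt2 at 12wk had the largest genotype difference of the members. The null libraries, at 96.2, 72.5 and 68.6 CPM, all lay above the WT libraries, at 42.4, 32.4, 30.1 and 20.0 CPM. The log2 fold change was 1.34 (SE 0.240), or 2.53-fold, and 1.29% of all genes tested had one at least as high. It did not pass (unadjusted p 0.000602 and adjusted p 0.238 by edgeR), and it passed in 2 of 9 other settings, DESeq2 (adjusted p 0.000129) and the GC and length offset with replicate block (1.43, adjusted p 0.0122). In the other 7 the adjusted p ran from 0.0770 to 0.271. Leaving out each library in turn gave log2 fold changes from 1.18 to 1.53 and adjusted p from 0.191 to 0.628. Null replicate 4, the library highest in the endothelial genes, had the lowest Angpt2 value of the 3. The sample titles name no stage of the ovarian cycle. Steroidogenic and theca markers at 12wk summed to 3280 to 12900 CPM per library in WT and 5700 to 8670 CPM in the null. The part of cycle stage in the 12wk levels was not tested. In CPM per kilobase of exon Angpt2 was 21.4 ± 4.05 in the null (SD, n = 3) and 8.47 ± 2.5 in WT (SD, n = 4).

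The endothelial genes at 12wk did not pass and their spread was wide. Their log2 differences ran from 0.23 (Cdh5) to 0.78 (Flt1), with adjusted p from 0.569 to 0.860. Flt1 measured 64.6, 45.9 and 206 CPM in null replicates 1, 3 and 4, against 69.2, 77.5, 58.5 and 46.0 CPM in WT. Null replicate 4 was far above the WT range, and the other null libraries lay within it or at its lower edge. Replicate 4 is the library with the low granulosa and high erythroid, leukocyte and mural sums given above. At PND8, Vegfa was lower in each null library (65.5, 62.4 and 62.0 CPM) than in every WT library (72.8, 88.3, 75.1 and 68.7 CPM), a log2 difference of -0.28 (SE 0.0847) that did not pass (edgeR quasi-likelihood, unadjusted p 0.00910, adjusted p 0.189). Angpt2 at PND8 differed by -0.78 (SE 0.341, adjusted p 0.328), and its ranges overlapped.

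**Figure D5:**
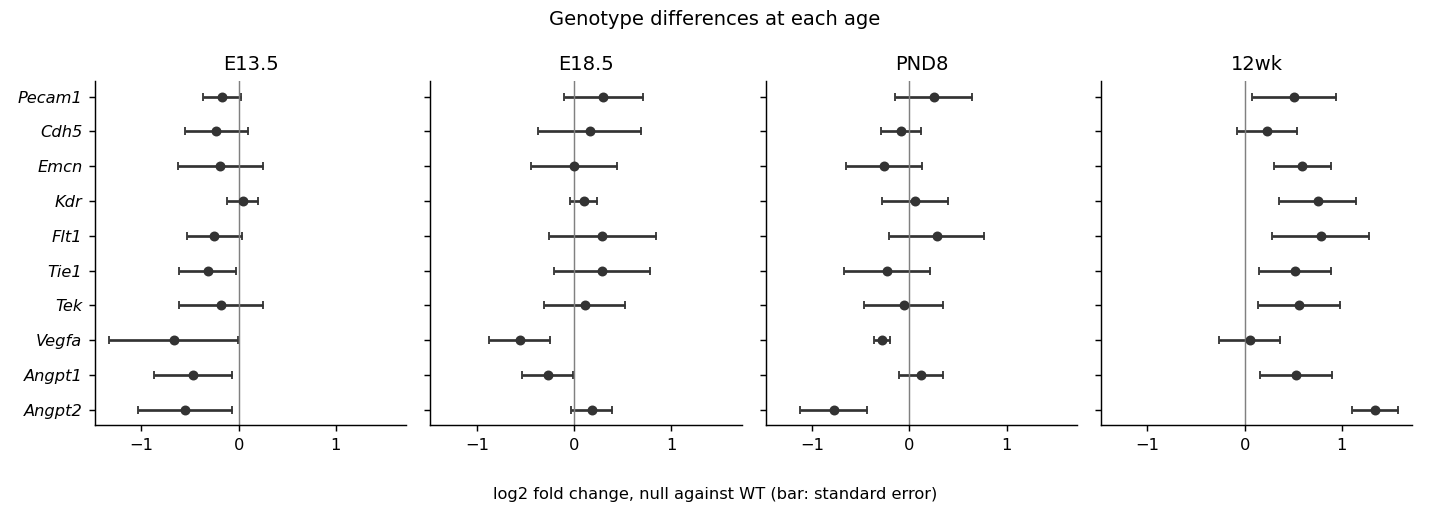
Log2 fold change of null against WT for each of the 10 members at each age, with bars of 1 SE. Angpt2 at 12wk, at 1.34, is the highest point, and none of the 40 points passed the adjusted threshold.

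Whether the genotype difference changed with age was tested with an interaction term over all 29 libraries. No member passed, where 0.806% of 20359 genes were called. By edgeR 2589 of these genes had an unadjusted p under 0.05, and 1 member did. That member was Angpt2, with genotype differences of -0.55, 0.18, -0.78 and 1.34 from E13.5 to 12wk (edgeR quasi-likelihood, unadjusted p 0.000907, adjusted p 0.0793). DESeq2 gave an adjusted p of 0.00512 and called 1 member. The edgeR adjusted p was 0.0311 without WT E13.5 replicate 3 and 0.0375 without WT PND8 replicate 3, and ran up to 0.201 without other libraries.

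Other vessel genes were counted by list. From PND8 to 12wk, 16.1% of all genes in WT and 14.8% in the null were called higher and 14.3% lower in each. In WT 18 of 25 other endothelial genes rose and 1 fell, with Cldn5, a tight junction protein, up by 1.69 and Gpihbp1, the capillary anchor of lipoprotein lipase, down at -1.58. In the null 13 rose and 0 fell. Among 11 other genes of the VEGF and angiopoietin system, 2 rose and 2 fell in WT, with the co-receptor gene Nrp1 at 1.15 and the ligand gene Vegfd at -0.76, and 6 rose and 0 fell in the null. Of 14 genes on the mural cell list, 4 rose in WT and 8 in the null, and none fell. Most of the list marks the pericytes and smooth muscle around vessels. It also holds the growth factor gene Pdgfb, which is not such a marker and rose by 1.55 in WT.

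From E18.5 to PND8 the background was high, with 37.6% of all genes called higher and 36.9% lower in WT and 38.9% and 38.5% in the null. Of 25 other endothelial genes, 2 rose and 9 fell in WT, and 3 rose and 13 fell in the null, so the share that fell in WT was near the background. In the same step 5 of the 11 VEGF and angiopoietin genes rose and 1 fell in WT, led by Nrp2 at 2.77 and Pgf, the placental growth factor gene, at -2.43. All 6 lymphatic endothelial genes rose in WT, and in the null 3 of 6 rose, near the background. Of 14 hypoxia response genes, whose program includes Vegfa, 4 rose and 7 fell in WT and 4 rose and 8 fell in the null. From E13.5 to E18.5, where 14.5% to 17.5% of all genes were called in each direction, 2 of 25 other endothelial genes rose and 2 fell in WT, and 5 rose and 2 fell in the null.

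Between genotypes at E18.5, where 4.99% of all genes were called, 1 of 11 genes of the VEGF and angiopoietin list passed, Angpt4, at -1.15 (adjusted p 0.0257 by edgeR). Of the arterial, venous and tip cell list 1 of 14 passed, Nr2f2, at -0.52 (adjusted p 0.0436), and of the hypoxia list 1 of 14, Hif1a, at 0.53 (adjusted p 0.0163). These shares are near the background. Nr2f2 also stands on the list of stromal markers, of which 2 of 7 were called, both lower, and 0 had a log2 difference above 0. At 12wk all 25 other endothelial genes had a log2 difference above 0 (median 0.36) and 0 were called. By edgeR 2 of them had an unadjusted p under 0.05, as did 1675 of all 17396 genes tested. Their sum was 737 to 2040 CPM in the null and 792 to 1040 CPM in WT, with 1 null library above the WT range.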

How the data were processed

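The authors deposited RSEM expected counts per gene for 29 libraries. The submitters' processing notes name FastQC 0.11.5, Trim Galore, STAR 2.5.2 and RSEM 1.3.0. The genome build, annotation release and strandedness are not given in the sources used here. Expected counts split reads shared by transcripts, so they were rounded to whole numbers before testing.

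Tests used edgeR 4.0.16 in R 4.3.3 (filterByExpr with a minimum count of 10 and a total of 15, TMM scaling, quasi-likelihood F-test, Benjamini-Hochberg adjustment over all genes tested, threshold 0.05). Each comparison was fitted on its own groups, and the interaction on all 29 libraries. The SE is the absolute log2 fold change divided by the square root of F. CPM used TMM over the 29 libraries, with a prior count of 2 for log2 values in correlations. DESeq2 1.42.0, limma 3.58.1 (voom with sample weights), other scalings, no filter, all groups in 1 fit, a replicate block and leaving out each library were alternatives. Library totals and a GC and length offset were added after seeing the data. The steps were tested on simulated counts that gave every gene the same spread between libraries. That run checks the code and does not show what the tests can detect in these libraries.

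The members and gene lists were chosen with earlier results of these data known. Beyond the members, Cdkn1b was named as a check, up to 2 called genes per list and comparison by smallest p, and the genes most correlated with the members, without predicted genes. Replicate numbers met the pairing rule (every pair over 0.1) only for E18.5 against E13.5 in the null, with correlations from 0.105 to 0.208, where the block left 3 members called.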

Additional observations from a re-analysis of the deposited data

Results flagged for a closer look

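Cdh5 in null E18.5 replicate 1 measured 29.7 CPM, apart from the other 3 libraries of its group at 38.8 to 40.8 CPM. It was the 1 case past the limit for a lone extreme value among 50 sets of a gene in a group of 4 libraries, where chance flags about 1 in 20. The rise of Cdh5 from E18.5 to PND8 in the null passed without each library in turn, with log2 fold changes from 1.70 to 2.05.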

How the results depend on the processing

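Of 26 calls on single members, 11 held in every alternative: Angpt2 in all 6 age steps, Cdh5 and Vegfa from E18.5 to PND8 in both genotypes, and Flt1 from PND8 to 12wk in WT. Over 1630 member values under alternatives, 118 changed sign, 0 of them among values called in the reported fits. Counts of called members moved as follows. For null against WT at 12wk (0), DESeq2 and the GC and length offset with replicate block gave 1. For E18.5 against E13.5 in WT (2), no filter gave 1, voom 7 and leaving out a library 2 to 4. For PND8 against E18.5 in WT (3), the GC and length offset gave 5 with or without the replicate block. For 12wk against PND8 in WT (9), no filter gave 4, voom, all groups in 1 fit and the GC and length offset with replicate block gave 5, and leaving out a library gave 3 to 8. The replicate block alone gave 6 there, and replicate numbers share only a number in that step. For E18.5 against E13.5 in the null (3), all groups in 1 fit gave 1. For PND8 against E18.5 in the null (5), the replicate block and all groups in 1 fit gave 3, the GC and length offset 8, with Flt1 and Tie1 turned to called falls, and leaving out a library 4 to 6. For 12wk against PND8 in the null (4), no filter gave 1, DESeq2 and all groups in 1 fit 7, and leaving out a library 1 to 7. For the interaction (0), DESeq2 gave 1 and leaving out a library 0 to 1. The causes were not tested. Lengths moved 35 of 80 per-kilobase means. Over all genes DESeq2 called 65, 1681, 813 and 326 between genotypes from E13.5 to 12wk, against 1, 814, 62 and 2 by edgeR. From E18.5 to PND8 the GC and length offset called 12393 of 17377 genes in WT and 12822 of 17198 in the null. Fetal Vegfa values rest on 15 to 91 counts per library.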

Other observations

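Lymphatic vessels, whose endothelial cells are distinct from those of blood vessels, were followed by 6 listed genes (Prox1, Lyve1, Pdpn, Reln, Mmrn1 and Ccl21a). The part of other ovarian cells in these genes was not tested. At 12wk their summed level was 269, 244 and 423 CPM in null replicates 1, 3 and 4, all above the WT libraries at 186, 125, 218 and 229 CPM. The mean of these sums was 312 CPM in the null and 190 CPM in WT, and a sum follows the genes with the most counts. The median log2 difference, which weighs each gene alike, was 1.92 over the 6 genes and 0 over all genes tested. The log2 differences ran from -0.64 to 2.95, with 5 of the 6 above 0. By edgeR 0 of 6 were called, where 0.0115% of all genes were called, and the lowest adjusted p was 0.338. An unadjusted p under 0.05 was reached by 5 of the 6, and by 1675 of all 17396 genes tested. From PND8 to 12wk, where 14.8% of all genes in the null and 16.1% in WT were called higher, 4 of the 6 rose and 1 fell in the null, while 0 rose and 1 fell in WT, and this difference was not tested as a set. Mural cell genes summed to 1180 to 2660 CPM in the null and 1070 to 1310 CPM in WT at 12wk, and 0 of 14 were called by edgeR. An unadjusted p under 0.05 was reached by 5 of the 14, beside the same 1675 of 17396 genes.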
